A study of Mus musculus with 4 samples.

Results

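Mouse genes named Gm plus a number or ending in Rik are loci that carry a placeholder name. Gm stands for gene model, a locus first predicted from the genome sequence, and Rik for a cDNA clone of the RIKEN collection. Many are long noncoding RNAs, which are transcribed but have no known protein product, or pseudogenes, which are copies of a coding gene that have lost its function. Others lie in repeated sequence, such as LINE-1 elements, which copy themselves through RNA with an endonuclease and a reverse transcriptase that they encode, and which mouse embryonic stem cells (mESCs) are known to transcribe. Of the 920 genes in the deposited table of differentially expressed genes (DEGs), 130 carried such a name and were taken as the predicted genes, by name alone. They comprised 103 Gm genes and 27 Rik genes.

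The libraries came from 46C mESCs, a mouse line that carries a green fluorescent protein reporter in the *Sox1* locus. The cells received lentivirus with a *scramble* control shRNA (2 libraries) or with *Rhox6* shRNA (2 libraries) and were collected after 24 h in medium with serum. *Rhox6* encodes a homeobox transcription factor of the X-linked Rhox cluster, and the comparison asks which transcripts differ in mESCs when it is knocked down. Nothing in the sources states that the libraries of a group were separate cultures, so the p-values measure only the spread between these libraries. *Rhox6* itself is not among the listed genes, so the knockdown could not be checked here, and whether both knockdown libraries carried the same hairpin is not settled.

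For every gene the table gives 1 normalized expression level per library. The unit has no name and no read counts are given, so the depth is unknown. Levels are therefore compared between libraries for the same gene, and an order of levels among genes is only an order of the listed values. All 920 rows were marked significant by the authors on these same libraries, so a large share of calls was fixed by the table and the p-values below are not independent evidence. A difference below is the mean log2(level + 1) in *Rhox6* shRNA minus that in *scramble*, with its standard error (SE) from limma, and n = 2 libraries per group throughout. Of 8 mESC markers looked for, only *Nanog* and *Klf4* were listed, with a summed level of 144.00 and 143.05 in *scramble* and 353.81 and 372.42 in *Rhox6* shRNA. In the same libraries the 4 listed markers of primitive endoderm out of 6 summed to 28.71 and 30.55 in *scramble* and to 6.83 and 7.52 in *Rhox6* shRNA. Of 5 trophoblast markers 3 were listed: *Krt18* and *Krt19* were lower, *Gata3* was higher from 0.02 and 0 to 0.92 and 0.63, and they summed to 29.79 and 31.27 against 13.18 and 10.86. *Vim* alone of 8 fibroblast markers was listed, at 80.99 and 93.53 against 195.28 and 177.12, and none of 12 markers of the 2-cell-like state was listed. Fewer cells of a type and less RNA per cell cannot be told apart in such bulk samples, and the part of these markers' cells in the results was not tested.

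Sequence is shown first for the members that read most alike, because it bears on what their levels can tell. When the longest transcripts of the 130 genes were compared with each other, 35 fell into 6 sequence groups, in which genes are joined by at least 90% identity over at least 50% of the shorter transcript. The largest group held 18 genes, and 6 of its members were aligned over 3839 columns, of which 98 differed in any of them. The 100 bases that hold the most of these differences are printed below, with capitals at each base that departs from the most frequent base. They come from the GRCm38 genome, on the strand of the gene.
*Gm48493*, chr13:16387780-16387879, - strand: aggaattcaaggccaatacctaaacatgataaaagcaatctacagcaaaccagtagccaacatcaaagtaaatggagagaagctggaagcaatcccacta
*Gm48128*, chr10:49828149-49828248, + strand: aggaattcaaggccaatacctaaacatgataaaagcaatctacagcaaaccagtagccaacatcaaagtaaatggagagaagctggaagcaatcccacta
*Gm42927*, chr3:120737582-120737681, - strand: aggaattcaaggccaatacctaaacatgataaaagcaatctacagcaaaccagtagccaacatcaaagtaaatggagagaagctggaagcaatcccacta
*Gm47036*, chr12:43752652-43752751, + strand: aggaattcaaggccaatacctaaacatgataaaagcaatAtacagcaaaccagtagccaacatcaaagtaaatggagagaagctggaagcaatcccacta
*Gm48417*, chr12:63573742-63573841, + strand: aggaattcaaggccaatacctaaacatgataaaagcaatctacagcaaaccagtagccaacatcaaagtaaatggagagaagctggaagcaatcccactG
*Gm48082*, chr12:10992234-10992333, + strand: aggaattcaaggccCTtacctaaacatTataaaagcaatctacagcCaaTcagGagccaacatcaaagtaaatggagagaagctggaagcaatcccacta

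Even in this most variable window, *Gm48493*, *Gm48128* and *Gm42927* had the same 100 bases on 3 chromosomes, and *Gm48082* departed at 6 positions. In *Gm48493*, *Gm48128*, *Gm42927*, *Gm47036* and *Gm48417* the longest stretch without a stop codon was 1280 codons, which reads as the second open reading frame of LINE-1, the one for endonuclease and reverse transcriptase. This name rests on background knowledge of the element, since the gene annotation names no repeats. A short read from such a stretch fits several of these loci equally well. How the authors placed such reads is not given in the sources used here, so the level of any 1 member is uncertain.

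The predicted genes were mostly higher in *Rhox6* shRNA. By limma, 102 of the 130 (78.5%) were higher and 25 (19.2%) were lower at an adjusted p under 0.05, while 53.7% of all 920 listed genes were called higher and 42.9% lower. Both *Rhox6* shRNA libraries lay above both *scramble* libraries for 102 members and below them for 26, where the shares over all listed genes were 54.1% and 44.2%. Of the 790 listed genes with other names, 392 were called higher and 370 lower. The median difference was 0.98 over the predicted genes and 0.56 over all 920. No test was made of the set against the other genes.

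A limma call with an absolute difference of 1 or more was found for 60 members that were higher and 9 that were lower, and over all listed genes 30.8% passed upward and 17.1% downward. After scaling each library to the same total of listed levels, these counts became 26 and 14 and the median difference of the members became 0.72, a shift of -0.26. The median over all listed genes shifted by -0.12. The totals were 9627.05 and 9586.09 in *scramble* and 11973.3 and 11853.3 in *Rhox6* shRNA. Their rows were chosen as differing and the members' own rise enters them, so part of the decrease is built in. The scaling is therefore no correction for depth. No member changed direction under this scaling.

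**Figure D1:**
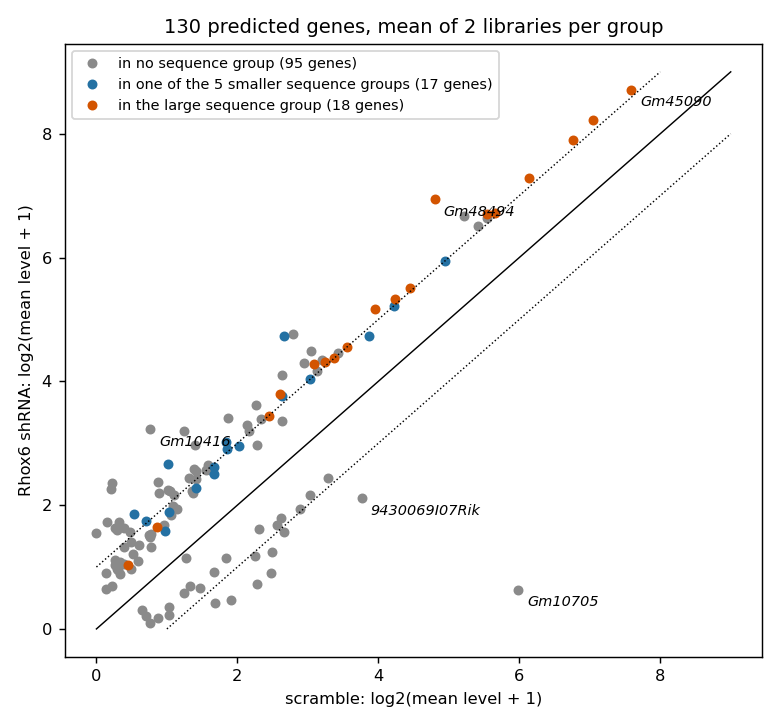
Each point is 1 of the 130 predicted genes, with log2(mean level + 1) in *scramble* on the x axis and in *Rhox6* shRNA on the y axis (means of 2 libraries, unit of the level not named). The solid line marks equal levels, the dotted lines a difference of 1, and the 18 genes of the large sequence group lie above the solid line, with differences from 0.58 to 2.34, while *Gm10705* lies alone at the lower right.

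Within a group the libraries were close to each other. The median absolute difference between the 2 *scramble* libraries was 0.20 over the predicted genes, and that between the 2 *Rhox6* shRNA libraries was 0.11. The median absolute difference between the groups was 1.03, and for listed genes with other names these 3 values were 0.13, 0.13 and 0.96. A difference between groups above that within them was fixed by the authors' choice of rows. Listed levels summed over the predicted genes were 1224.45 and 1196.82 in *scramble* and 2548.71 and 2558.87 in *Rhox6* shRNA, which was 12.7% and 12.5% of the sum over all listed genes in *scramble* and 21.3% and 21.6% in *Rhox6* shRNA. The 18 genes of the large sequence group alone summed to 727.49, 714.50, 1666.72 and 1652.81 in the same order of libraries.

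Most members were listed at low levels. The mean over the 4 libraries ran from 0.33 to 303.8 with a median of 2.84, close to the 2.72 of all listed genes, and 106 members reached a mean of 1, 30 a mean of 10 and 4 a mean of 100. The 6 members with the highest listed levels (*Gm45090*, *Gm47164*, *Gm48493*, *Gm21897*, *Gm42927* and *Gm48309*) belonged to the large sequence group.

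In all 18 genes of the large sequence group both *Rhox6* shRNA libraries lay above both *scramble* libraries. This held for 54.1% of all listed genes. A short read can fit several of these loci, so the 18 genes are not separate measurements. *Gm45090*, a long intergenic noncoding RNA on chromosome 7 and the member with the highest listed values, was at 199.11 and 182.36 in *scramble* and at 414.45 and 419.34 in *Rhox6* shRNA, a difference of 1.13 ± 0.06 (SE). Its 1148 bases match *Gm42927*, *Gm47164* and *Gm48128* with 0 mismatches. *Gm47164* was at 135.07 and 127.61 against 286.74 and 305.55 (1.17 ± 0.06). Both genes had tight groups that lay well apart.

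*Gm48493*, annotated as a processed pseudogene on chromosome 13, was at 109.64 and 104.84 in *scramble* and at 232.86 and 244.32 in *Rhox6* shRNA (1.15 ± 0.05). *Gm21897*, which is annotated as protein-coding, was at 72.67 and 66.74 against 151.02 and 158.20 (1.14 ± 0.07). *Gm42927* was at 50.90 and 48.25 against 104.78 and 105.06 (1.07 ± 0.06), and *Gm48309* at 49.12 and 42.21 against 103.03 and 103.05 (1.16 ± 0.09). The mean level in *Rhox6* shRNA over that in *scramble* was 2.25 for *Gm47164*, 2.22 for *Gm48493*, 2.22 for *Gm21897*, 2.19 for *Gm45090*, 2.12 for *Gm42927* and 2.26 for *Gm48309*. Over the whole group this ratio had a median of 2.23 and ran from 2.09 to 4.54.

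The upper end of that range was *Gm48494*, a model of 264 bases that matches *Gm47164* and *Gm48309* without a mismatch. It was listed at 11.68 and 41.98 in *scramble* and at 154.89 and 88.55 in *Rhox6* shRNA (2.34 ± 0.61). Its libraries differed within each group far more than those of its longer relatives, and its difference was 1.46 without the first and 3.22 without the second *scramble* library. Without the first *Rhox6* shRNA library it was 1.94 with a limma adjusted p of 0.082. The lower end of the levels was *Gm47842*, at 0.47 and 0.26 against 0.98 and 1.09. The 18 loci lie on 7 chromosomes, among them 5 on chromosome 12 and 4 each on chromosomes 10 and 13.

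The other 5 sequence groups, with 17 genes, were also higher in every member. *Gm48492*, *Gm48829*, *Gm48764*, *Gm50358* and *Gm47357* share 98.4% to 99.2% identity, and in 3 of them the longest stretch without a stop codon, of 866 or 872 codons, reads as the polymerase of an endogenous retrovirus, again by background knowledge. Their levels were low, from 0.78 for *Gm47357* to 3.50 for *Gm48764* in *scramble* and from 1.90 to 6.96 in *Rhox6* shRNA. The differences in this group ran from 0.63 to 1.05.

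*Gm14393*, *Gm14444*, *Gm14411* and *Gm14325* lie on distal chromosome 2, in a cluster of genes for Krüppel-associated box zinc-finger proteins, a class of DNA-binding repressors. *Gm14325* was at 23.90 and 35.59 in *scramble* and at 65.07 and 55.44 in *Rhox6* shRNA. *Gm14444* was at 17.69 and 17.59 against 34.65 and 37.51, and *Gm14411*, an unprocessed pseudogene, at 1.06 and 0.97 against 5.49 and 5.19 (1.65 ± 0.12). All 4 thus moved in the same direction, *Gm14411* from the lowest level. *Gm14444* has a 99.9% identical transcript in *Gm14406*, which is not listed.

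*Gm13034*, *Gm13135* and *Gm13136* are processed pseudogenes on chromosome 4 that match *Smarca5*, the ATPase of the ISWI chromatin remodelers, at 97.2%, 97.1% and 98.1% identity. *Smarca5* is not listed. *Gm13034* was at 5.18 and 5.19 in *scramble* and at 12.71 and 12.32 in *Rhox6* shRNA, and the differences of the 3 pseudogenes ran from 0.96 to 1.18.

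*Gm37416*, *Gm42427* and *Gm49980* formed the fifth group. *Gm37416*, of 318 bases, was at 4.64 and 6.06 in *scramble* and at 23.00 and 28.22 in *Rhox6* shRNA (2.07 ± 0.16), while the other two had differences of 0.86 and 1.00. The last group was *G430049J08Rik* and *Gm49089*, which share 96.6% identity and had differences of 1.32 and 1.05.

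**Figure D2:**
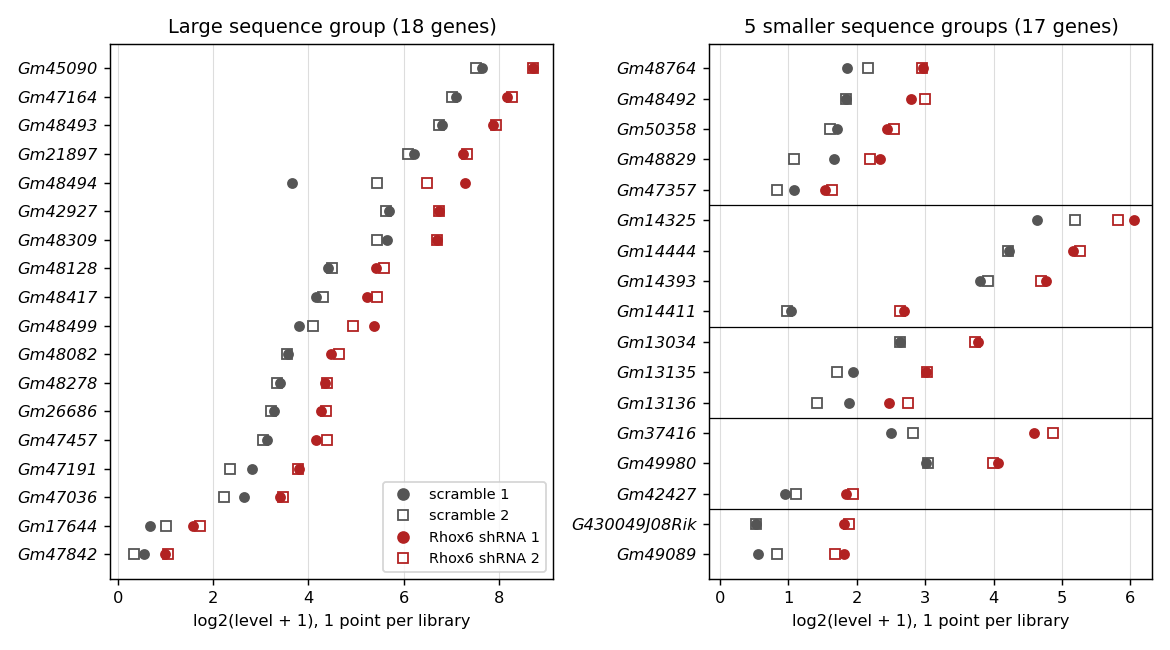
Levels of the 35 predicted genes in sequence groups on the log2(level + 1) scale, with 1 point per library, grey for *scramble* and red for *Rhox6* shRNA (circle for library 1, square for library 2); horizontal lines part the 5 smaller groups. In every gene both red points lie to the right of both grey points, and *Gm48494* has the widest spread within its groups.

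Near-identical sequence was common among the members. A transcript of another locus with at least 95% identity over at least 50% of the length was found for 38 of the 130, of which 37 were called higher and 1, *Gm10705*, lower. Among the 92 without one, 65 were called higher, 24 lower and 3 were not called. Of these, 49 also shared no exon base with another gene, and 37 of the 49 were called higher, 11 lower and 1 was not called. The 49 still hold 7 genes of the sequence groups, all higher, such as *Gm17644* and *Gm26686*. Of the 42 left without them, 30 were called higher, 11 lower and 1 was not called. Shorter stretches of shared sequence were not looked for. Among listed genes with other names, 22 had a near-identical transcript elsewhere, and 14 of them were called higher and 8 lower. Over all 920 listed genes, 53.7% were called higher and 42.9% lower. Some of the 38 members are near-identical to each other, such as *Gm48493* and *Gm48128*, so their calls are not separate results.

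*Gm10705* had the largest difference of all 920 listed genes. It is a processed pseudogene of 461 bases on the - strand of chromosome 3 (GRCm38, 87207545 to 87208005), and its closest coding transcript is *Ube2l3*, which encodes a ubiquitin-conjugating enzyme, with 3 mismatches over 459 aligned bases. A window of 100 bases from each is printed below, with capitals where *Gm10705* departs from *Ube2l3*.
*Ube2l3*, chr16:17154183-17154282, - strand: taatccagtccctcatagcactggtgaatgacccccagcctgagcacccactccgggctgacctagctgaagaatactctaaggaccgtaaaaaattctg
*Gm10705*, chr3:87207596-87207695, - strand: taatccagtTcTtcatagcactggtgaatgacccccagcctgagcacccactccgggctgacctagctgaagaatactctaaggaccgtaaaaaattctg

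*Gm10705* was listed at 68.50 and 55.89 in *scramble* and at 0.90 and 0.19 in *Rhox6* shRNA. The groups lay far apart, with a difference of -5.39 ± 0.25 (limma, adjusted p = 0.000149). The mean level was 114-fold higher in *scramble*. *Ube2l3* is not listed, and 7 loci in all carry a transcript near-identical to *Gm10705*, so reads of the pseudogene and of its relatives cannot be told apart with certainty. The part of read placement in this fall was not tested.

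Listed levels of pseudogenes of the same coding gene did not all differ in the same direction. *Gm10224*, a copy of the ribosomal protein gene *Rpl15* with 98.9% identity that lies 8461 bases from *Nanog*, was at 1.19 and 0.96 in *scramble* and at 2.53 and 2.67 in *Rhox6* shRNA (0.80 ± 0.13). *Rpl15-ps3*, a listed *Rpl15* pseudogene with another type of name, was at 177.44 and 115.68 against 50.84 and 61.11 (-1.35 ± 0.22). These 2 differences have opposite signs. Another 12 genes carry a transcript near-identical to *Gm10224*, so reads cannot be assigned to it with certainty. *Gm11977*, a copy of *Rbbp5*, which encodes a subunit of histone H3 lysine methyltransferase complexes, was higher at 4.88 and 5.16 against 1.69 and 1.53. Both *Rpl15* and *Rbbp5* are absent from the list.

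Besides *Gm48494* and *Gm37416*, the largest rises were found in genes without a shared sequence group, apart from *Gm14411*. *Gm10416*, a model on chromosome 5 whose transcript awaits experimental tests, was at 0.10 and 1.30 in *scramble* and at 6.27 and 10.41 in *Rhox6* shRNA. Its difference was the largest of any member that was higher (2.52 ± 0.41). With a pseudocount of 0.1 it was 3.95, below the 4.26 of *Gm6763* and the 4.07 of *1700016D06Rik*, so this order depends on the pseudocount. *Gm14820*, antisense to *Suv39h1*, which encodes a histone H3 lysine 9 methyltransferase, was at 5.72 and 6.13 against 26.02 and 26.38 (1.97 ± 0.09). It shares 36.6% of its exon bases with *Suv39h1*, which is not listed, and the counting is not stated to use strand.

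*A730049H05Rik* was at 1.22 and 1.5 in *scramble* and at 8.11 and 8.21 in *Rhox6* shRNA (1.96 ± 0.13). *Gm13580*, antisense RNA on chromosome 2, was at 2.53 and 0.72 against 6.37 and 7.38 (1.67 ± 0.35), so that its *scramble* libraries differed more than its *Rhox6* shRNA libraries. *5830418P13Rik* was at 1.28 and 0.40 against 4.39 and 3.98 (1.54 ± 0.26). *Gm48941*, a long intergenic noncoding RNA on chromosome 14, was at 2.90 and 2.42 against 8.15 and 10.99 (1.52 ± 0.17). The groups did not overlap in any of these 4 genes, but this was a condition for their choice among the largest rises.

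After *Gm10705*, the next largest falls were smaller than the largest rises. *9430069I07Rik* was at 11.65 and 13.54 in *scramble* and at 2.54 and 4.10 in *Rhox6* shRNA (-1.67 ± 0.20). *Gm4756* on chromosome 12 was at 3.47 and 4.19 against 0.27 and 1.03 (-1.58 ± 0.25), and *2610528J11Rik* on chromosome 4 at 4.41 and 4.76 against 0.87 and 0.86 (-1.58 ± 0.12). These are annotated as protein-coding, and none of them has a near-identical transcript elsewhere.

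Among noncoding members that fell, *Gm16973* was at 2.49 and 3 in *scramble* and at 0.63 and 0.14 in *Rhox6* shRNA (-1.45 ± 0.21). *Gm45847* was at 1.64 and 2.78 against 0.37 and 0.31, and *Gm15706* at 4.74 and 2.74 against 1.21 and 1.33. *Gm16172* was at 4.17 and 6.50 against 2.43 and 1.47 (-1.10 ± 0.25), and without the second *scramble* library its difference was -0.83 with a limma adjusted p of 0.066. *Gm5091*, *Gm9918* and *Gm42890* ended the 12 largest falls, with differences of -0.85, -0.89 and -0.95. Of these, *Gm9918* is annotated as protein-coding. *Gm42890* shares 75.6% of its exon bases with *Wdr77*, *Ovgp1* and *Atp5f1*.

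**Figure D3:**
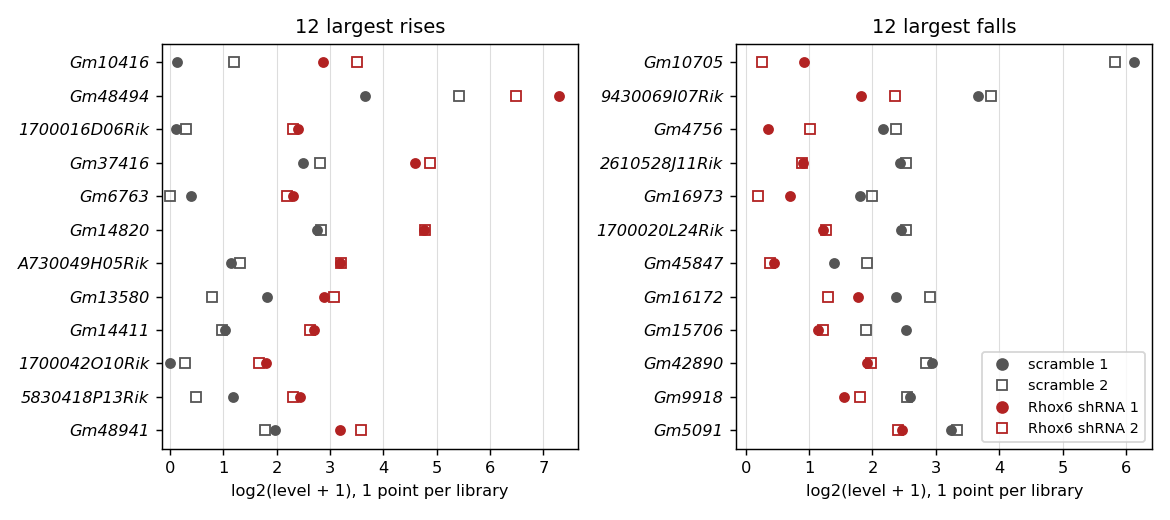
The 12 predicted genes with the largest rise (left) and the 12 with the largest fall (right) among those with non-overlapping groups, an adjusted p under 0.05 and a mean of 1 or more in the group with the higher level, on the log2(level + 1) scale with 1 point per library. *Gm48494* and *Gm10416* have wide groups, *Gm14820* and *2610528J11Rik* narrow ones, and *Gm10705* falls from 68.50 and 55.89 to 0.90 and 0.19.

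In 25 of the 130 members (19.2%) both *scramble* libraries were below 0.5, and this held for 12.6% of all listed genes. All 25 were called higher, and a listed gene this low in *scramble* had little room to be lower. In *Rhox6* shRNA their mean ran from 0.57 to 4.12 with a median of 1.16, and 18 of them reached a mean of 1. The other 7 stayed below it.

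Only 3 members had a *scramble* library listed at 0. *Gm13610* was at 0 in both *scramble* libraries and at 0.47 and 3.36 in *Rhox6* shRNA. Its 2 *Rhox6* shRNA libraries differed widely, 77.6% of its exon bases are shared with *Prrc2b*, and its limma adjusted p of 0.046 became 0.21 without the first and 0.20 without the second *scramble* library. It was 0.051 with the filter on low levels and 0.057 without a variance trend (both limma), and the difference of 1.34 became 2.12 without the first and 0.56 without the second *Rhox6* shRNA library. *1700042O10Rik* was at 0 and 0.22 in *scramble* and at 2.47 and 2.17 in *Rhox6* shRNA. *Gm6763*, which has a transcript of 100% identity in *Gm21312*, was at 0.31 and 0 against 3.96 and 3.60. No member was listed at 0 in a *Rhox6* shRNA library.

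The highest level reached from near zero was that of *1700016D06Rik*, a protein-coding gene on chromosome 8, at 0.09 and 0.23 in *scramble* and at 4.30 and 3.94 in *Rhox6* shRNA (2.14 ± 0.13). *G430049J08Rik* was at 0.44 and 0.45 against 2.51 and 2.70, and *6330410L21Rik*, antisense to the growth factor gene *Egf*, at 0.27 and 0.23 against 2.06 and 2.58. *Gm38103* was at 0.27 and 0.14 against 2.04 and 2.15. In *Rhox6* shRNA the 2 libraries of each of these genes were fairly close. The spread of their *scramble* values cannot be judged so near zero, since the depth is unknown.

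*Gm42870* was less even, at 0.22 and 0.40 in *scramble* and at 2.93 and 1.29 in *Rhox6* shRNA, and *2510009E07Rik* was at 0.49 and 0.13 against 0.88 and 2.14. Without the first or the second *scramble* library the limma adjusted p was 0.087 or 0.062 for *Gm42870* and 0.076 or 0.18 for *2510009E07Rik*, and it was 0.07 for the latter without the second *Rhox6* shRNA library. *Gm20559*, at 0.45 and 0.17 against 0.87 and 1.26, had an adjusted p of 0.071 by limma without the second *scramble* library. *Gm5976*, a processed pseudogene, was at 0.13 and 0.33 against 1.75 and 2.32, and *5330411J11Rik* was at 0.47 and 0.31 against 1.85 and 2.09. The remaining ones, *2310003L06Rik*, *D830044D21Rik*, *A630072M18Rik*, *Gm29724*, *Gm16170* and *Gm47842*, had means between 1.03 and 1.64 in *Rhox6* shRNA.

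**Figure D4:**
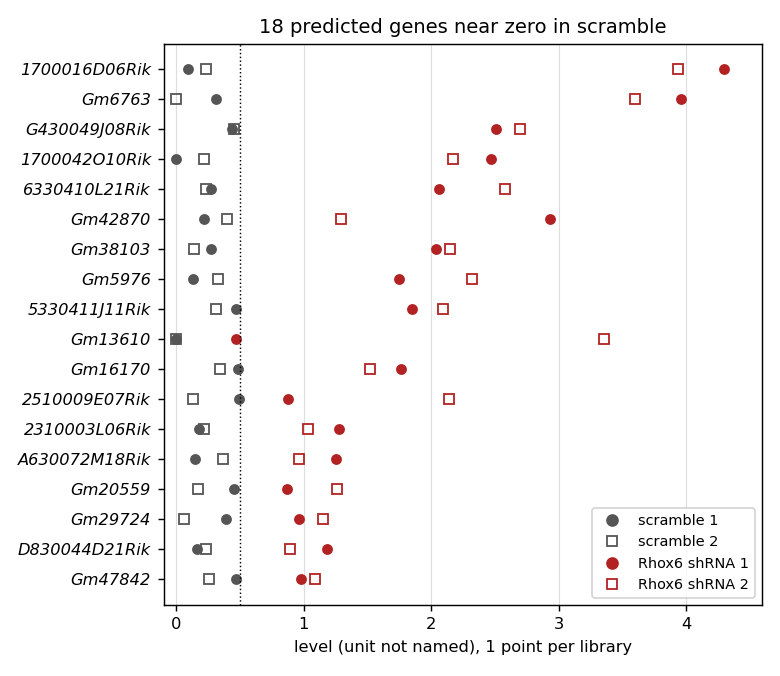
Listed levels of the 18 predicted genes with both *scramble* libraries below 0.5 (dotted line) and a mean of at least 1 in *Rhox6* shRNA, on a linear axis with 1 point per library. All *scramble* points lie left of the line, and the *Rhox6* shRNA points reach 4.30 for *1700016D06Rik* and are widely spread for *Gm13610*, *Gm42870* and *2510009E07Rik*.

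The opposite pattern was less frequent. Both *Rhox6* shRNA libraries were below 0.5 in 7 members (5.38%), where the share of all listed genes was 8.48%, and only *Gm18609*, *Gm26724* and *Gm45847* of these had a mean of at least 1 in *scramble*. *Gm26724*, antisense to *Lemd2*, was at 1.03 and 1.04 in *scramble* and at 0.17 and 0.18 in *Rhox6* shRNA. *Gm18609* was at 1.12 and 0.97 against 0.26 and 0.29. Each was tight within both groups.

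In 2 members (1.54%, against 1.63% of all listed genes) the groups overlapped, although the deposited table marks every row as significant. *Gm44503*, a model whose exon bases all lie in exons of *Ccpg1*, *Pigb* or *Dyx1c1*, was at 10.16 and 0.28 in *scramble* and at 4.92 and 13.54 in *Rhox6* shRNA (1.30 ± 1.07, limma adjusted p = 0.28). Its second *scramble* library decided the direction, since the difference was -0.27 without that library and 2.86 without the first. *4933431E20Rik* was at 1.41 and 1.42 against 1.80 and 0.62 (-0.18 ± 0.27, limma adjusted p = 0.54), and its difference was 0.21 without the second *Rhox6* shRNA library. *Gm2762*, at 2.85 and 5.02 against 1.61 and 2.50, did not overlap but had a limma adjusted p of 0.057, so 3 members (2.31%) were not called, against 3.37% of all listed genes.

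By annotation, 80 members were long noncoding RNAs (28 intergenic, 23 antisense, 16 of the class named TEC for transcripts that await experimental tests, 11 processed transcripts and 2 sense-intronic), 25 protein-coding genes, 24 pseudogenes and 1 a small nucleolar RNA. Of the long noncoding RNAs, 64 were called higher and 14 lower, with a median difference of 0.90. All 16 TEC models were higher. Of the protein-coding members 16 were called higher and 8 lower (median 0.87), and of the pseudogenes 21 and 3 (median 1.08). Over all listed genes 53.7% were called higher and 42.9% lower. The 35 genes of the sequence groups, all higher, include TEC models such as *Gm47164* and pseudogenes such as *Gm48493*. The counts of these classes are thus not separate from those groups. The small nucleolar RNA *Gm23595* was at 0.58 and 1.53 in *scramble* and at 2.75 and 4.62 in *Rhox6* shRNA. By name, 82 of the 103 Gm genes and 20 of the 27 Rik genes were called higher, and 19 and 6 lower.

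Listed noncoding RNAs with other names serve for comparison. There were 15 by name ending or annotation, of which 11 were called higher and 4 lower, with a median difference of 1.03. They include *Eprn*, at 17.33 and 17.89 in *scramble* and at 81.62 and 79.80 in *Rhox6* shRNA, and the imprinted *H19*, at 2.01 and 2.13 against 0.71 and 1.10. *Mocos*, a protein-coding gene, entered this count through the ending of its name only. *Ifi30* and *Ptprv* entered only through their annotation as processed transcripts. The count is thus one of names and annotations, not of RNAs shown to be noncoding. Of the 766 protein-coding genes with other names, 375 were called higher and 363 lower.

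Levels of models that share exons with a known gene cannot be assigned to either. Exon bases were shared with another annotated gene in 45 members, of which 30 were called higher and 13 lower, and in 12 of them the shared part was at least 50%. The shares called over all 920 listed genes were 53.7% higher and 42.9% lower. *Gm49527*, all of whose exon bases lie in *Commd5* or *Zfp7*, was at 4.29 and 6.04 in *scramble* and at 2.48 and 2.42 in *Rhox6* shRNA. *Gm49333*, which spans *Ece2* and *Eef1akmt4*, was at 1.85 and 2.53 against 0.99 and 0.79, and *Gm20460*, within *Ppt2* and *Egfl8*, at 0.67 and 0.59 against 0.16 and 0.15. These 3 models were lower, and their groups did not overlap.

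Other listed genes lay within 100 kb of 39 members, which made 35 pairs of nearest genes. In 28 pairs both genes had a difference of the same sign and in 7 of opposite sign, where 54.7% of all listed genes had a higher mean log2 level in *Rhox6* shRNA. At that share, 50.4% of pairs of listed genes taken without regard to place would have the same sign. Every pair here holds a predicted gene, of which 79.2% were higher, so this share is only a rough base. All 11 pairs that overlapped were of the same sign, and of the 24 that did not overlap 17 were. These 17 include *Gm48493* with *Gm48494* and *Gm14393* with *Gm14444*, where both genes belong to the same sequence group. In 9 of the 11 overlapping pairs the genes lie on opposite strands, and the counting is not stated to use strand, so their reads cannot be told apart where exons meet.

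*1700042O10Rik* overlaps *Ddc*, which encodes the decarboxylase of dopamine and serotonin synthesis, on the other strand without sharing an exon base. *Ddc* was at 9.14 and 10.07 in *scramble* and at 40.98 and 39.16 in *Rhox6* shRNA (1.95 ± 0.09), next to the 1.59 ± 0.14 of *1700042O10Rik*. *A730049H05Rik* shares 36.9% of its exon bases with *Adamts9*, a secreted metalloprotease gene, which was at 5.26 and 5.81 against 15.35 and 16.44 (1.37 ± 0.10). *Gm16170* overlaps *Trim7*, a gene for a ubiquitin ligase, at 2.78 and 2.86 against 12.35 and 14.17. Both genes of each pair were higher. On the log2(level + 1) scale, the predicted gene had the larger difference only beside *Adamts9*. Beside *Ddc* that order depends on the pseudocount, since with 0.1 the difference of *1700042O10Rik* was 3.76.

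Further overlapping pairs that were higher were *4632404M16Rik* (0.52) with *Casq2* (1.91), a gene for a calcium-binding protein of muscle, *Gm20687* (0.50) with *Zfhx2* (1.34), *Gm29724* (0.76) with *Adamts8* (0.80), *Gm26672* (0.65) with *Pcdhga10* (0.71) and *Gm42878* (0.74) with *Adam1a* (0.77). *Gm42878* shares 99.9% of its exon bases with *Adam1a*, *Mapkapk5* or *Tmem116*, and *Gm20687* 97.1% with *Zfhx2os*, *Zfhx2* and others. Where exons are shared in this way, the values of a pair are not separate measurements.

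Besides *Gm10010* with *Gm18609*, described further on, the overlapping pairs that were lower were *9430069I07Rik* with *Matn2*, which encodes the matrix protein matrilin-2, and *1700020L24Rik* with *Mmp28*, a matrix metalloprotease gene. *Matn2* was at 3.54 and 3.83 in *scramble* and at 2.03 and 1.57 in *Rhox6* shRNA (-0.75 ± 0.14). *Mmp28* was at 2.26 and 2.12 against 0.65 and 0.89 (-0.85 ± 0.13), and *1700020L24Rik* at 4.45 and 4.77 against 1.34 and 1.40 (-1.24 ± 0.12). In these 2 pairs the predicted gene had the larger fall, and 12.2% and 44.4% of their exon bases were shared with the partner.

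Some members stood close to a listed gene without overlap. *Gm38103* lies 913 bases from *Nkx2-9*, a homeobox gene of the ventral neural tube, which was at 1.48 and 1.14 in *scramble* and at 9.63 and 10.19 in *Rhox6* shRNA (2.24 ± 0.13). *2410137M14Rik* was at 4.31 and 6.05 against 17.46 and 14.76, and *H2-M5*, a nonclassical class I gene 2824 bases away, at 28.56 and 29.78 against 93.56 and 85.78. *Gm53*, 296 bases from the microRNA gene *Mir196a-1*, was at 8.05 and 6.41 against 23.32 and 19.59. All of these were higher together with their neighbor.

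A run of 3 members on chromosome 6 fell together. *9330102E08Rik* was at 1.71 and 1.30 in *scramble* and at 0.72 and 0.52 in *Rhox6* shRNA, and its limma adjusted p was 0.052 without the second *Rhox6* shRNA library. It lies 1474 bases from *Gm18609*, which overlaps *Gm10010*, at 1.07 and 0.61 against 0.20 and 0.06. *Gm18609* and *Gm10010* share exon bases on opposite strands. On chromosome 17, *Gm16172* and *F630040K05Rik* (-0.69), 68297 bases apart, were both lower.

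In 7 pairs the neighbors had opposite signs. *Gm45470* was higher (1.03) and *Got1l1*, 4858 bases away, lower (-0.68). *Gm9888* was higher (1.08) and *Cmtm8* lower (-1.21), and *Gm2762* had a difference of -0.67 beside 0.82 for the homeobox gene *Msx2*. *Gm20460* was lower (-0.50) and *Notch4*, a receptor gene of Notch signaling, higher (0.90). The other 3 such pairs were *Gm13610* with *Dnm1*, *Gm11627* with *Meioc* and *2510009E07Rik* with *Map3k13*.

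**Figure D5:**
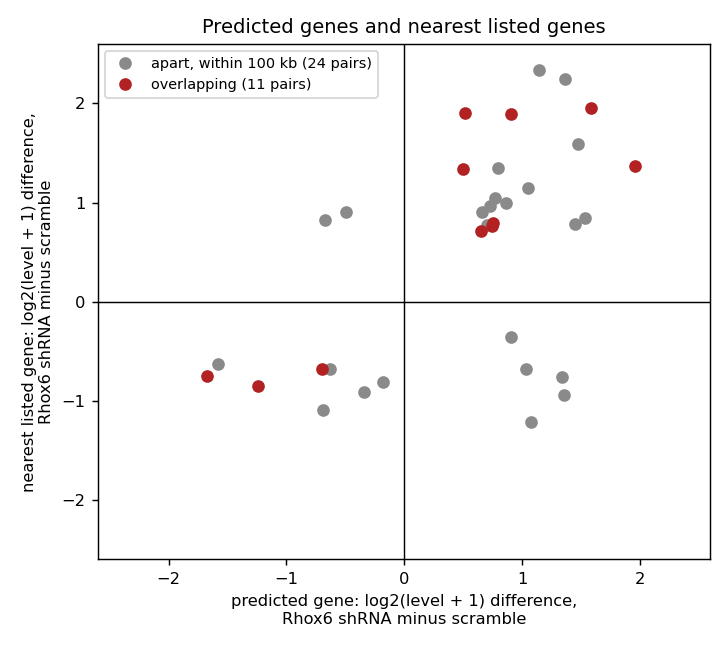
Difference of the predicted gene (x axis) and of the nearest listed gene (y axis), both *Rhox6* shRNA minus *scramble* on the log2(level + 1) scale, for the 35 pairs within 100 kb; where both genes are predicted, the pair is drawn once. The 11 overlapping pairs (red) lie in the quadrants of equal sign, and 7 of the 24 other pairs (grey) lie in the quadrants of opposite sign.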

How the data were processed

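RNA-seq libraries of 46C mESCs, 2 with *scramble* and 2 with *Rhox6* shRNA, were grouped by their sample labels. The authors deposited a table of 920 genes with a normalized signal per library, called the level here, of unnamed unit. The table's own fold changes and p-values were not used, nor were its group means. Bowtie 0.12.2 and mm9 are named in the submitters' processing notes, without their role. The counter, the annotation and the strand setting are not stated there or in the paper's methods. Without counts, no count test or depth could be had. The number of per-sample columns left unused was 0.

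The log2(level + 1) values of all 920 genes were fitted in limma 3.58.1 (R 4.3.3), with a variance trend and Benjamini-Hochberg adjustment over the 920, since the deposited unit is no count. With 2 libraries per group, an exact permutation test cannot reach 0.05. The fit was also run on simulated data in which most genes were unchanged. The deposited rows were all chosen as differing, so that run says nothing about the calls here.

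Predicted genes were matched by Ensembl gene ID to GENCODE M21 (GRCm38), which gave all 130 members, 2 of them under another symbol. The coordinates are those of GRCm38, not of mm9. Longest transcripts were compared with all annotated transcripts by BLAST 2.17.0 and aligned with MAFFT 7.526, and sums were made in Python 3.11.15 with pandas 2.3.3.

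Genes named in the text were the 12 largest rises and 12 largest falls (adjusted p under 0.05, no overlap, mean of 1 or more in the group with the higher level), the 6 highest mean levels, all that crossed from both libraries under 0.5 to a mean of at least 1 in either direction, all with overlapping groups, and all with a listed gene that overlaps them or starts within 2 kb on the other strand. Other genes were named after their values were seen. The members, gene lists and tests were chosen with earlier results of these data known. The alternatives were other pseudocounts, a filter on low levels, equal library sums, no variance trend, a replicate block, each library left out, other limits of near zero and of neighbor distance, and, chosen after seeing the data, splits by shared sequence.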

Additional observations from a re-analysis of the deposited data

How the results depend on the processing

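No member changed direction under the pseudocounts of 0.1 and 0.5, the filter on low levels, equal library sums, no variance trend or the replicate block, and the counts of members called higher and lower (102 and 25) stayed within 1.5 times. The counts with a difference of at least 1 (60 higher, 9 lower) depended on the pseudocount and the scaling. They were 99 and 22 with a pseudocount of 0.1, 83 and 15 with 0.5, and 26 and 14 with equal library sums, and the median difference (0.98) was 1.26 with a pseudocount of 0.1 and 0.72 with equal sums. A higher pseudocount shrinks the difference of genes at low levels by construction, and equal sums of the listed genes take out part of the members' own rise. With the replicate number as a block, 102 members were called higher and 26 lower. Nothing in the labels states that the numbers pair libraries. Deviations of same-numbered libraries correlated at -0.04 over all listed genes and -0.22 over the members. With 2 pairs only, such a value cannot settle whether they are paired.

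Leaving out 1 library gave 95 to 97 members called higher and 21 to 26 lower, and reversed *Gm44503* (-0.27 without the second *scramble* library, 2.86 without the first) and *4933431E20Rik* (0.21 without the second *Rhox6* shRNA library, -0.58 without the first). The limit for near zero in *scramble* gave 1 member at 0.1 and 36 at 1, against 25 at 0.5. With each sequence group counted once, 73 were called higher and 25 lower. Without members that have a near-identical transcript elsewhere these counts were 65 and 24, and without those that share exon bases too, 37 and 11, and without any gene of a sequence group as well, 30 and 11, with fewer genes by construction. With a difference of at least 1, these 3 splits left 33 higher and 8 lower, 21 and 3, and 19 and 3. Pairs of neighbors with the same sign numbered 22 of 25 within 20 kb and 37 of 54 within 500 kb. The depth is unknown, so the counting error of low levels could not be given.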
